A study of Homo sapiens with 4 samples.

Results

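Aminoacyl-tRNA synthetases join each amino acid to its tRNA, and their 37 genes were followed here among the 16057 genes of an RNA sequencing table from MM.1S cells, an established human multiple myeloma line. A gene was included by its symbol alone, without use of its values: the letter of the amino acid followed by ARS, with EPRS, FARSA and FARSB. The family itself was chosen with earlier results of these data known. Symbols ending in 2 were taken as the 17 mitochondrial enzymes, and the remaining 20 as cytosolic, of which GARS and KARS are known to serve both compartments. The cells received JG342, an allosteric inhibitor of HSP70 chaperones, at 350 nM, or the solvent DMSO, for 26 h, in medium with serum, antibiotics and added glutamine. Each treatment has 2 libraries, numbered 1 and 2 and called biological duplicates by the submitters. All came from this 1 cell line, so the p-values speak only for these libraries. Each rests in part on the spread of the gene between its libraries. It rests more on a variance trend over all genes (2 residual and 6.89 prior degrees of freedom). Levels are in TPM, the share of each transcript in its library after correction for its length, so genes can be compared within a library but a change in total RNA per cell cannot be seen. The depth behind the values is unknown.

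In the cytosol each synthetase charges the tRNAs used by the main ribosomes. Mitochondria use their own set, encoded by separate nuclear genes and imported, to translate the few respiratory chain proteins made from mitochondrial DNA. When charged tRNA runs short, the kinase GCN2 (gene EIF2AK4) phosphorylates the initiation factor eIF2. Other kinases do the same under other stresses, and in each case the transcription factor ATF4 is then made in larger amounts. Genes for amino acid import, amino acid synthesis and cytosolic tRNA charging are known ATF4 targets.

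The cytosolic synthetase transcripts were largely higher after JG342 and the mitochondrial ones were not. Of the 20 cytosolic genes, 13 rose, none fell and 7 did not pass the test (limma, Benjamini-Hochberg adjusted over all 12042 genes fitted, threshold 0.05), whereas 10.8% of all fitted genes rose (1304, against 917 that fell). Of the 17 mitochondrial genes, none rose, 2 fell and 15 did not pass, whereas 7.62% of all fitted genes fell. The median log2 fold change was 0.60 over the 20 cytosolic genes and -0.12 over the 17 mitochondrial genes, beside 0.03 over all fitted genes. With equal library medians 967 of all genes rose and 1202 fell, and 12 of the cytosolic genes rose and 1 fell. All 37 genes were above the limit on low values (a mean of 1 TPM over the 4 libraries). Fold changes are on the log2(TPM + 1) scale.

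**Figure D1:**
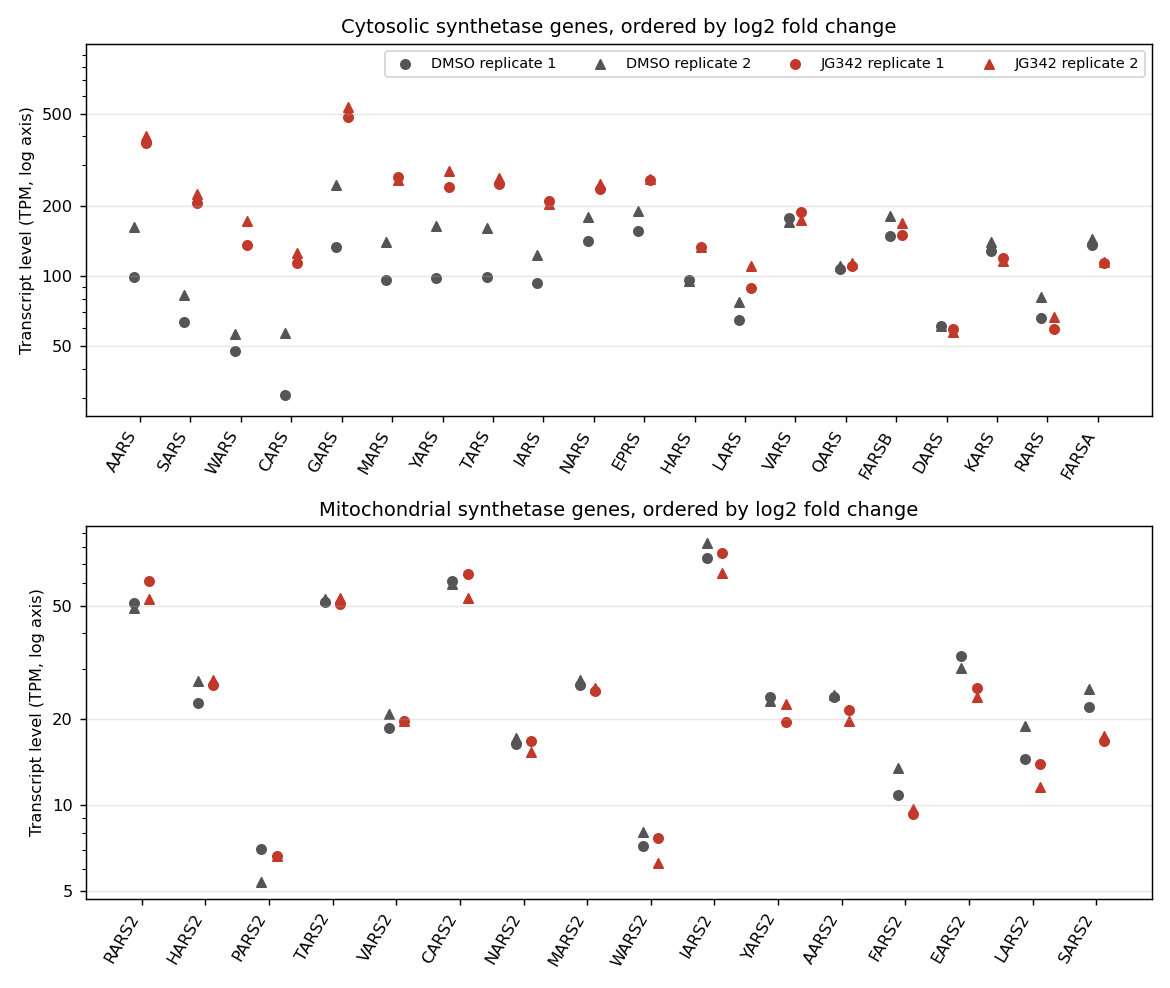
Transcript level in TPM (log axis) of the 20 cytosolic (top) and 16 of the mitochondrial (bottom) synthetase genes in each of the 4 libraries, with grey for DMSO, red for JG342, circles for replicate 1 and triangles for replicate 2. From AARS to LARS, the 13 cytosolic genes that rose, both red points lie above both grey points.

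The summed level of the 20 cytosolic transcripts was 2051 and 2635 TPM in DMSO replicates 1 and 2, and 3813 and 4044 TPM in JG342 replicates 1 and 2. The lowest JG342 sum thus lay above the highest DMSO sum, and the mean was 1.68 times as high. The summed level of the 17 mitochondrial transcripts was 501 and 531 TPM in DMSO and 490 and 462 TPM in JG342. Its groups did not overlap either, in the opposite direction, with a mean 0.922 times as high. The nearest libraries, at 501 TPM in DMSO and 490 TPM in JG342, lay closer than the DMSO SD of 21.2 TPM. Among single genes, 62.1% of all fitted genes had groups without overlap in either direction. The 7 cytosolic genes that did not pass summed to 828 and 892 TPM in DMSO and 804 and 814 TPM in JG342. These 7 were set apart by their call on the same values, so their small change in sum is no separate result. No p is given for these sums, since the genes were chosen as a group.

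Promoters are shown because 13 cytosolic genes moved together and ATF4 is known to bind, with C/EBP partners, a composite element whose core can be written TGATGNAA. Whether ATF4 binds these promoters in these cells, or has a part in the rises, was not tested. RefSeq promoter windows on GRCh38.p14, from 250 bases before to 50 bases after a transcript start, were matched for 30 of the 37 genes. YARS, LARS, VARS, DARS, VARS2 and AARS2 were among those not matched. On either strand the core was found for 7 of the 11 matched genes that rose, for none of the 5 matched cytosolic genes that did not pass, and for 1 of the 14 matched mitochondrial genes. Of all 27305 genes with windows, expressed in these cells or not, 4.46% held it, and of all 35116 windows, 3.62%. No share was computed for all genes that rose. The stricter TGATGCAA, a subset of the same matches, was found for 6 of the 11, for none of the 5 and for none of the 14, and for 1.08% of all genes (0.866% of windows). The matches are shown with 11 bases on each side, along the strand of the gene, and the match is in capitals, so that one beginning with TT is the core on the opposite strand.
AARS: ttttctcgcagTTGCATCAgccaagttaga
CARS: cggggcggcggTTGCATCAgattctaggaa
GARS: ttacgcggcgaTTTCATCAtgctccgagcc
MARS: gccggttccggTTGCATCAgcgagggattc
TARS: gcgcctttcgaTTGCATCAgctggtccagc
IARS: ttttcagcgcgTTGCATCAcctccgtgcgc
NARS: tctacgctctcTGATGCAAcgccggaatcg
YARS2: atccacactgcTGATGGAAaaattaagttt

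AARS, CARS, MARS, TARS and IARS carry the same 8 letters in the same orientation, GARS has another base at the free position, and NARS carries the core on its own strand. In the order listed the stretches lie at chr16:70289675-70289704 (minus strand), chr11:3057407-3057436 (minus), chr7:30594834-30594863 (plus), chr12:57488053-57488082 (plus), chr5:33440956-33440985 (plus), chr9:92293692-92293721 (minus), chr18:57621804-57621833 (minus) and chr12:32756076-32756105 (minus). The match begins 187 bases before the transcript start in AARS, 33 in GARS, 13 in IARS, 4 in MARS and 2 in CARS, and 2 bases after it in TARS and 14 in NARS, so 6 of the 7 lie close to the start. The mitochondrial match, in YARS2, begins 197 bases before. CARS, GARS and TARS have 2 windows each, with the match in 1 of them. SARS, WARS, EPRS and HARS rose and have no match in their windows, which says only that these letters are absent there. Among the other genes of tRNA charging listed further below, none with a window held a match, including XPOT, EIF2AK4 and ATF4, which rose.

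Among the cytosolic genes that rose, AARS, SARS, WARS, CARS and GARS changed most, each by a factor of 2.68 to 2.97 in mean TPM. AARS, the alanine enzyme, was at 99.1 and 164 TPM in DMSO replicates 1 and 2 and at 376 and 400 TPM in JG342 replicates 1 and 2. The groups did not overlap, with means of 131 ± 45.8 TPM (SD, n = 2) in DMSO and 388 ± 17.0 TPM (SD, n = 2) in JG342. Its log2 fold change was 1.60 ± 0.19 SE (adjusted limma p 0.00135).

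SARS, the serine enzyme, whose product also charges selenocysteine tRNA with serine, was at 63.7 and 83.3 TPM in DMSO and at 206 and 227 TPM in JG342. It had the smallest p of all 37 genes, with a log2 fold change of 1.55 ± 0.13 SE (adjusted limma p 0.000227). WARS, the tryptophan enzyme and also a known interferon-gamma target, was at 47.7 and 56.7 TPM in DMSO and at 137 and 173 TPM in JG342. Its rise of 1.55 ± 0.14 SE (adjusted limma p 0.000253) was the same size as that of SARS.

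CARS, the cysteine enzyme, had the lowest cytosolic mean in DMSO, at 31.0 and 57.2 TPM (in replicate 2 WARS was slightly lower), and was at 114 and 125 TPM in JG342. Its log2 fold change was 1.48 ± 0.23 SE (adjusted limma p 0.00384). GARS, the glycine enzyme of both compartments, had the highest cytosolic mean under both treatments, although not the highest value in DMSO replicate 1, at 133 and 247 TPM in DMSO and 485 and 535 TPM in JG342. Its log2 fold change was 1.48 ± 0.23 SE (adjusted limma p 0.00397). For CARS and GARS the DMSO libraries themselves lay 0.86 and 0.89 apart on the log2 scale, yet the groups did not overlap. Without the filter on low values neither passed (adjusted limma p 0.0604 and 0.0628).

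MARS, YARS, TARS and IARS formed the next step, with mean TPM 1.92 to 2.24 times as high after JG342. MARS, the methionine enzyme, was at 96.1 and 140 TPM in DMSO and 268 and 261 TPM in JG342, a log2 fold change of 1.18 ± 0.16 SE (adjusted limma p 0.00204). IARS, the isoleucine enzyme, was at 93.6 and 124 TPM in DMSO and 212 and 206 TPM in JG342, a log2 fold change of 0.95 ± 0.13 SE (adjusted limma p 0.00245). These are subunits of the multisynthetase complex, in which several cytosolic synthetases are held on a scaffold.

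TARS, the threonine enzyme, was at 99.2 and 161 TPM in DMSO and 249 and 264 TPM in JG342, a log2 fold change of 1.02 ± 0.19 SE (adjusted limma p 0.00814). YARS, the tyrosine enzyme, was at 98.3 and 165 TPM in DMSO and 242 and 283 TPM in JG342, a log2 fold change of 1.03 ± 0.20 SE (adjusted limma p 0.0103). In both genes DMSO replicate 2 lay between DMSO replicate 1 and the JG342 libraries. Without DMSO replicate 1 the changes were smaller, at 0.67 for TARS and 0.66 for YARS, and without the filter on low values neither passed (adjusted limma p 0.0801 and 0.0928).

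NARS, EPRS, HARS and LARS rose least, with mean TPM 1.39 to 1.51 times as high. NARS, the asparagine enzyme, was at 142 and 181 TPM in DMSO and 237 and 250 TPM in JG342, with a log2 fold change of 0.60 ± 0.12 SE (adjusted limma p 0.0112). EPRS, a single protein that charges glutamate and proline, was at 157 and 192 TPM in DMSO and 261 and 262 TPM in JG342, with a log2 fold change of 0.59 ± 0.11 SE (adjusted limma p 0.00888). Without DMSO replicate 1, neither passed, at 0.43 for NARS (adjusted limma p 0.0739) and 0.45 for EPRS (adjusted limma p 0.0618), nor did they without the filter on low values (adjusted limma p 0.0724 and 0.0583).

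HARS, the histidine enzyme, had the closest replicates of the group, at 96.7 and 95.1 TPM in DMSO and 133 and 134 TPM in JG342, with a log2 fold change of 0.47 ± 0.09 SE (adjusted limma p 0.0100). It passed in neither fit that left out 1 DMSO library (adjusted limma p 0.0536 without replicate 1 and 0.0739 without replicate 2), while its fold change moved only between 0.46 and 0.48. LARS, the leucine enzyme and a known leucine sensor of the mTORC1 pathway, was at 65.2 and 77.7 TPM in DMSO and 88.8 and 110 TPM in JG342. Its log2 fold change of 0.47 ± 0.13 SE (adjusted limma p 0.0410) was the least certain of the 13. It passed in 6 of 13 alternative fits. The call was lost with equal library medians (0.41, adjusted limma p 0.0955) and without DMSO replicate 1 (0.35, adjusted limma p 0.217), DMSO replicate 2 (0.60, 0.0675) or JG342 replicate 2 (0.32, 0.166).

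**Figure D2:**
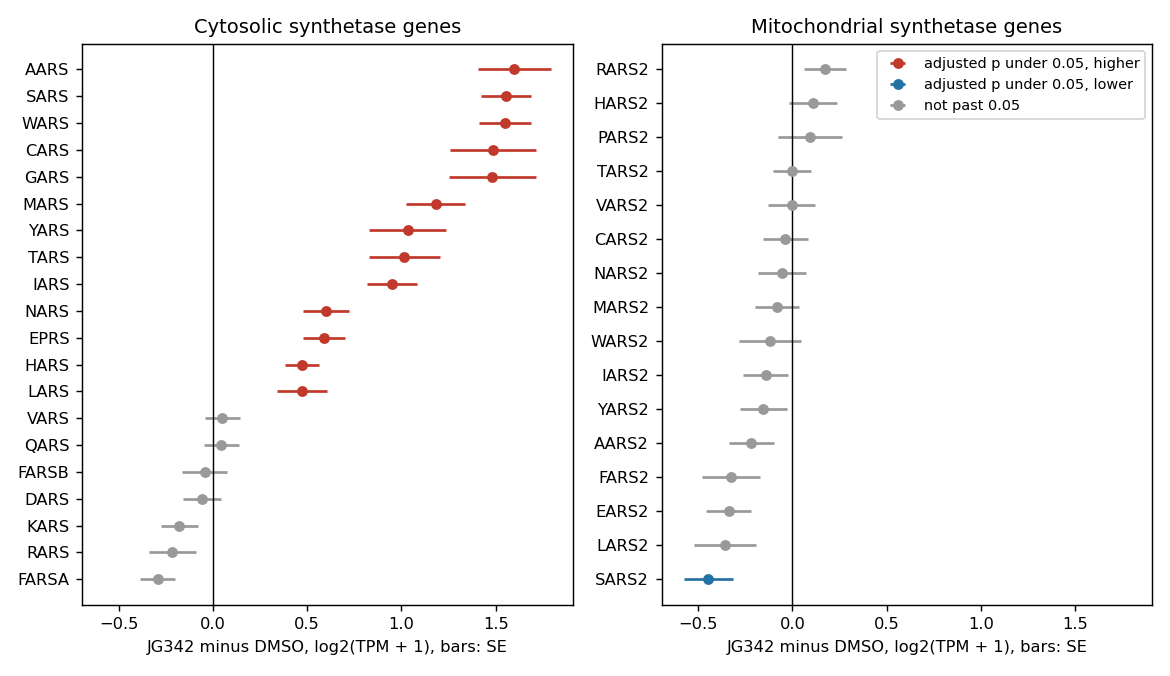
Log2 fold change of JG342 against DMSO on the log2(TPM + 1) scale for the 20 cytosolic (left) and 16 of the mitochondrial (right) synthetase genes, with bars for the standard error and colour for the limma call at an adjusted p of 0.05. The 13 cytosolic genes in red lie between 0.47 and 1.60, and the 16 mitochondrial genes between -0.45 and 0.17.

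The 7 cytosolic genes that did not pass were VARS, QARS, FARSB, DARS, KARS, RARS and FARSA. VARS, the valine enzyme, was at 179 and 172 TPM in DMSO and 189 and 175 TPM in JG342, with a log2 fold change of 0.05 ± 0.09 SE (adjusted limma p 0.756). QARS, the glutamine enzyme, was at 108 and 111 TPM in DMSO and 111 and 115 TPM in JG342, with a log2 fold change of 0.04 ± 0.09 SE (adjusted limma p 0.786). With equal library medians both values were slightly below 0, at -0.02. DARS, the aspartate enzyme, was at 61.0 TPM in both DMSO libraries and at 59.5 and 57.5 TPM in JG342 (log2 fold change -0.06).

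KARS, the lysine enzyme, serves both compartments as GARS does, but was at 128 and 140 TPM in DMSO and 120 and 117 TPM in JG342, a log2 fold change of -0.18 ± 0.10 SE (adjusted limma p 0.231). RARS, the arginine enzyme, was at 66.2 and 81.2 TPM in DMSO and 59.6 and 66.6 TPM in JG342, with overlapping groups and a log2 fold change of -0.21 ± 0.13 SE (adjusted limma p 0.264). When the replicate number was a block and library medians were equal, KARS and RARS passed as lower (adjusted limma p 0.0334 and 0.0209).

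FARSA and FARSB encode the alpha and beta subunits of the cytosolic phenylalanine enzyme. FARSA was at 137 and 145 TPM in DMSO and at 115 TPM in both JG342 libraries, so its groups did not overlap, and its log2 fold change was -0.29 ± 0.09 SE (adjusted limma p 0.0588). FARSB was at 149 and 182 TPM in DMSO and 150 and 169 TPM in JG342, with a log2 fold change of -0.04 ± 0.12 SE (adjusted limma p 0.838). FARSA passed as lower in the blocked fit, which has the replicate number as a term (adjusted limma p 0.00499) and with equal library medians (adjusted limma p 0.0326). Neither subunit gene passed as higher in any alternative fit.

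The order of the cytosolic levels was rearranged. In DMSO the highest mean was 4.32 times the lowest, with GARS (190 TPM) at the top, followed by VARS (176 TPM) and EPRS (174 TPM), and with WARS (52.2 TPM) and CARS (44.1 TPM) at the bottom. Neighbours in that order mostly lay within the spread of their replicates, as with VARS and EPRS. In JG342 the highest mean was 8.71 times the lowest, from GARS (509.8 TPM) and AARS (388 TPM) down to RARS (63.1 TPM) and DARS (58.5 TPM). AARS went from rank 9 to rank 2 and MARS from 11 to 3, whereas VARS went from 2 to 10 and FARSA from 6 to 16. From MARS (264 TPM) through YARS, EPRS and TARS to NARS (244 TPM), ranks 3 to 7 in JG342, the means lay close together. Their replicate SDs ran from 0.53 TPM (EPRS) to 28.6 TPM (YARS). Both MARS values and both EPRS values lay above both NARS values, whereas those of YARS and TARS overlapped with NARS.

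By structure, the synthetases form catalytic class I and class II, which have unrelated folds. Of the cytosolic genes, 6 of 9 in class I and 6 of 10 in class II rose, and EPRS, which holds 1 enzyme of each class, also rose. The median log2 fold change was 0.95 in class I and 0.54 in class II, with ranges of -0.21 to 1.55 and -0.29 to 1.60. By assembly, 4 of the 8 multisynthetase complex genes rose (MARS, IARS, EPRS and LARS), with a median of 0.26, and 9 of the 12 genes outside it, with a median of 1.02. The 5 largest rises were all outside the complex. These counts describe the 20 genes, and the difference between complex and other genes was not tested.

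The mitochondrial genes were lower in level and changed less. Their DMSO means ran from 6.21 TPM (PARS2) to 78.1 TPM (IARS2), with a median of 24.1 TPM, against a median of 124 TPM for the cytosolic genes. IARS2, the isoleucine enzyme, and CARS2, the cysteine enzyme, held ranks 1 and 2 under both treatments. Of the 17 log2 fold changes, 14 were below 0 and 3 above, and in 8 genes both JG342 values lay below both DMSO values, a pattern seen in 28.2% of all fitted genes. In 14 cytosolic genes both JG342 values lay above both DMSO values, beside 34.0% of all fitted genes, and groups without overlap in either direction made up 62.1%.

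Of the mitochondrial genes that passed as lower, SARS2, the serine enzyme, was at 22.1 and 25.6 TPM in DMSO and 16.8 and 17.5 TPM in JG342, with a log2 fold change of -0.45 ± 0.13 (adjusted limma p 0.0434). The groups did not overlap, and the call was close to the threshold. It held in 7 of 13 alternative fits and was lost without any 1 of the 4 libraries. SARS2 shares 67.4% of its exon bases with a read-through transcript (AC011455.2) and 15.8% with MRPS12 on the opposite strand, so its reads may be split.

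LARS2, the leucine enzyme, was at 14.5 and 19.0 TPM in DMSO and 13.9 and 11.6 TPM in JG342 (log2 fold change -0.36 ± 0.16 SE, adjusted limma p 0.163). EARS2, the glutamate enzyme, which also supplies the precursor of mitochondrial glutaminyl-tRNA, was at 33.3 and 30.2 TPM in DMSO and 25.7 and 24.0 TPM in JG342 (log2 fold change -0.34 ± 0.12 SE, adjusted limma p 0.0792). In the blocked fit both passed as lower, LARS2 with an adjusted limma p of 0.0338 and EARS2 with 0.0176. Same-numbered libraries gave changes of -0.06 and -0.66 for LARS2, yet its SE in the blocked fit was 0.14. In that fit 4 of the 17 mitochondrial genes fell, beside 15.7% of all fitted genes, and 34.9% of all genes passed in either direction. FARS2, the single-subunit phenylalanine enzyme, was at 10.9 and 13.5 TPM in DMSO and 9.29 and 9.67 TPM in JG342, and AARS2, the alanine enzyme, at 23.9 and 24.3 TPM in DMSO and 21.5 and 19.7 TPM in JG342. Neither passed (log2 fold changes -0.33 and -0.22). With equal library medians EARS2 also passed as lower (adjusted limma p 0.0458), and with those medians in the blocked fit so did FARS2 (adjusted limma p 0.0278) and AARS2 (adjusted limma p 0.0448).

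The mitochondrial genes that follow did not pass. Their changes were smaller in size than their standard errors, apart from YARS2, IARS2 and RARS2 (standard errors 0.13, 0.12 and 0.11). The log2 fold changes were -0.15 for YARS2, -0.14 for IARS2, -0.12 for WARS2, -0.08 for MARS2, -0.06 for NARS2 and -0.04 for CARS2. Those of VARS2 (-0.0043) and TARS2 (-0.0022) were next to 0, and those of PARS2, the proline enzyme, HARS2, the histidine enzyme, and RARS2, the arginine enzyme, were 0.09, 0.11 and 0.17. RARS2 was the only one of the 17 with both JG342 values (60.7 and 52.6 TPM) above both DMSO values (50.9 and 49.2 TPM), and it did not pass (adjusted limma p 0.315). All of these genes have standard errors between 0.10 and 0.17, so changes of this size could not be told from 0 with 2 libraries a group.

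For 16 pairs of a cytosolic and a mitochondrial gene for the same amino acid, the transcript ratio was compared in each library. EPRS was set against both EARS2 and PARS2, so those pairs share its values. The cytosolic log2 fold change was the higher one in 15 of the 16 pairs, with RARS and RARS2 as the exception. The median ratio of mean levels was 4.33 in DMSO and 9.82 in JG342. In 14 pairs both JG342 ratios lay above both DMSO ratios, in 1 pair below (RARS to RARS2), and in the VARS to VARS2 pair they overlapped. Among single genes, both JG342 values lay above both DMSO values in 34.0% of all fitted genes. No such share was computed for ratios, which in large part repeat the cytosolic rises given above. The single-pair ratios were not tested, since an exact permutation test of 2 libraries against 2 cannot give a two-sided p under 0.333.

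The cysteine pair changed order. CARS was at 0.510 and 0.960 times the level of CARS2 in DMSO replicates 1 and 2, and at 1.77 and 2.36 times in JG342. The alanine ratio, AARS to AARS2, was 4.15 and 6.74 in DMSO and 17.5 and 20.3 in JG342. The serine ratio, SARS to SARS2, was 2.89 and 3.26 in DMSO and 12.2 and 12.9 in JG342, the largest shift among the pairs as a fold of the mean ratios. In contrast, the valine ratio, VARS to VARS2, was 9.58 and 8.25 in DMSO and 9.59 and 8.87 in JG342.

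**Figure D3:**
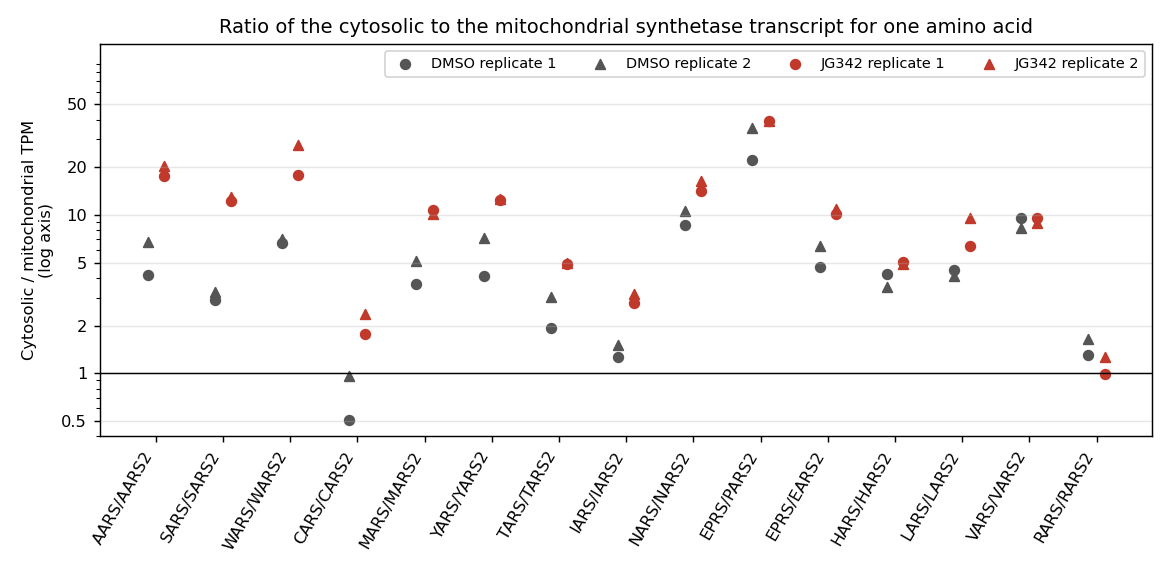
Ratio of the cytosolic to the mitochondrial synthetase transcript (TPM over TPM, log axis) for 15 of the 16 pairs, in each of the 4 libraries (grey DMSO, red JG342, circles replicate 1, triangles replicate 2). Both red points lie above both grey points in 13 of the 15 pairs, and CARS/CARS2 crosses the line at 1.

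HARS and HARS2 are shown in detail because they are transcribed away from each other from starts 85 bases apart. The 84 bases between the RefSeq starts lie at chr5:140691371-140691454 (GRCh38.p14) and are given on the plus strand, that of HARS2, with no part in capitals because they hold no match to TGATGNAA.
HARS and HARS2 interval: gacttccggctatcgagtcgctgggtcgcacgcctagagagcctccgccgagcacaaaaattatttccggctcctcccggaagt

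HARS rose, as given above, while HARS2 was at 22.8 and 27.2 TPM in DMSO and 26.4 and 27.5 TPM in JG342, with overlapping groups and a log2 fold change of 0.11 ± 0.13 SE (adjusted limma p 0.597). The ratio of HARS to HARS2 was 4.24 and 3.49 in DMSO and 5.05 and 4.86 in JG342. The genes share exon sequence on opposite strands (9.49% of the exon bases of HARS and 14.2% of those of HARS2), and whether the counting used strand is not given in the sources used here.

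The DMSO libraries were not alike for the genes that rose. In 12 of the 13, with HARS as the exception, DMSO replicate 2 was above DMSO replicate 1, by a median of 0.40 over the 13 on the log2 scale, whereas 58.9% of all fitted genes were higher in replicate 2, with a median difference of 0.04. The gap was 0.89 for GARS, 0.86 for CARS, 0.74 for YARS and 0.72 for AARS. The JG342 libraries differed less, with a median of 0.09 over the same 13 genes. ATF4 itself was at 420 and 788 TPM in the DMSO libraries. Its part in the gap was not tested.

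Each same-numbered pair gives its own change, and the pairs share no library. All 13 genes that rose did so in both pairs, which had to be so because the groups of all 13 did not overlap. The median over the 13 was 1.32 for pair 1 against 0.77 for pair 2, and the change was larger in pair 1 for 10 of them. The exceptions were WARS, LARS (0.44 and 0.50) and HARS (0.46 and 0.49). Without DMSO replicate 2, 11 of the 20 cytosolic genes passed, and without DMSO replicate 1, 9 did. GARS passed in each of these fits and moved most, from 1.04 without DMSO replicate 1 to 1.92 without DMSO replicate 2. Among the mitochondrial genes, 10 of 17 had the same sign in both pairs, and LARS2 differed most, at -0.06 in pair 1 and -0.66 in pair 2.

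**Figure D4:**
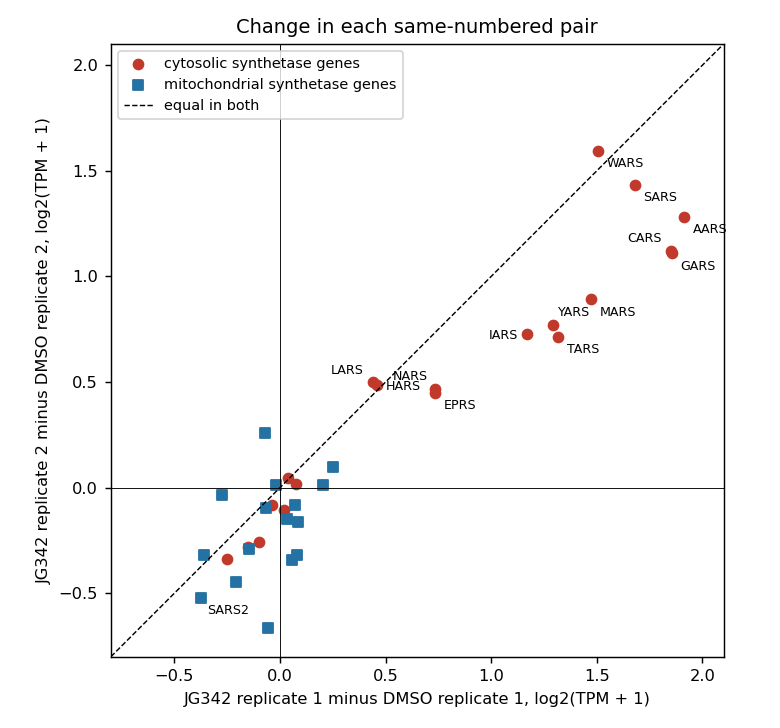
Change in each same-numbered pair of libraries on the log2(TPM + 1) scale, with JG342 replicate 1 minus DMSO replicate 1 on the x axis and the replicate 2 pair on the y axis, for 20 cytosolic (red circles) and 16 of the mitochondrial (blue squares) genes, and genes past the threshold labelled. The 13 genes that rose lie above 0 on both axes, 10 of them below the dashed line of equal change.

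Other genes of tRNA charging, tRNA export and sensing of uncharged tRNA, with ATF4, were read from a list of 18. The list was chosen with earlier results of these data known, so its share is no independent comparison with all genes. Of the 18 genes, 3 rose (XPOT, EIF2AK4 and ATF4), none fell and 15 did not pass, with a median log2 fold change of 0.05. Of all fitted genes, 10.8% rose and 18.4% passed in either direction. XPOT, which exports tRNA from the nucleus, was at 71.4 and 90.7 TPM in DMSO and 215 and 207 TPM in JG342, a log2 fold change of 1.38 ± 0.12 SE (adjusted limma p 0.000267). EIF2AK4, the sensor of uncharged tRNA, was at 19.2 and 20.6 TPM in DMSO and 45.97 and 38.96 TPM in JG342, a log2 fold change of 1.05 ± 0.13 SE (adjusted limma p 0.00131). The DMSO libraries of EIF2AK4 lay 0.10 apart on the log2 scale.

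ATF4 was at 420 and 788 TPM in DMSO and 1269 and 1476 TPM in JG342, a log2 fold change of 1.25 ± 0.24 SE (adjusted limma p 0.00900). Without DMSO replicate 1 its change was smaller, at 0.80, and without the filter on low values it did not pass (adjusted limma p 0.0917). ATF4 and XPOT have processed pseudogenes of at least 95% identity over 52.3% and 45.0% of their transcripts, so part of their reads could be placed elsewhere. The transcripts for the scaffold proteins of the multisynthetase complex did not pass. AIMP1 had a log2 fold change of -0.05, AIMP2 of 0.06 and EEF1E1 of -0.25 ± 0.10 SE (adjusted limma p 0.106). AIMP2 matches EIF2AK1 over 43.5% of its transcript, and it overlaps that gene on the opposite strand (38.7% of the AIMP2 exon bases). EEF1E1 shares 26.9% of its exon bases with EEF1E1-BLOC1S5 on the same strand. Reads of EEF1E1 may therefore be split, and those of AIMP2 if the counting did not use strand. In the blocked fit EEF1E1 passed as lower (adjusted limma p 0.0219), while DTD1, which removes D-amino acids from tRNA, passed as higher at 0.32 (adjusted limma p 0.0148, against 0.0862 without the block).

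The remaining genes of the list had log2 fold changes between -0.24 and 0.20. TARSL2, a second cytosolic threonyl enzyme, was at 13.8 and 16.4 TPM in DMSO and 18.5 and 16.4 TPM in JG342 (log2 fold change 0.20, adjusted limma p 0.370). QRSL1, GATB and GATC form the amidotransferase that makes glutaminyl-tRNA in mitochondria, and their values were 0.02, 0.12 and -0.09. MTFMT, which formylates the initiator tRNA there, was at 0.05. The editing genes AARSD1 and DTD2 were at 0.12 and -0.06, the selenocysteine genes PSTK and SEPSECS at 0.16 and -0.12, TRNT1, which adds the CCA end, at -0.24, and GCN1, a partner of the uncharged tRNA sensor, at -0.22. AARSD1 matches PTGES3L-AARSD1 over 94.6% of its transcript, so its reads may be split. GCN1 passed as lower, at -0.28, in the blocked fit with equal library medians (adjusted limma p 0.0372).

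The cell line was checked against markers. All 7 plasma cell markers (SDC1, TNFRSF17, IRF4, PRDM1, XBP1, CD38 and SLAMF7) were present, at 22.0 TPM or more in every library. The B cell gene PAX5, the T cell gene CD2, the myeloid genes CD14 and ITGAM and the epithelial genes EPCAM and KRT19 stayed at or below 0.99 TPM. CD3E (3.21 to 7.70 TPM) and LYZ (37.0 to 46.2 TPM) were above that. In bulk RNA, fewer cells with a transcript and less of it per cell cannot be told apart. Over the table, 1118 to 1418 genes a library were listed at 0, and 18.4% of fitted genes passed in either direction.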

How the data were processed

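RNA from 2 DMSO and 2 JG342 cultures was sequenced on a BGISEQ-500. The authors deposited 1 value per gene and library, taken to be TPM from the values, since each library sums to between 994463 and 994718. The submitters' processing notes name HISAT2 2.0.4, Bowtie2 2.2.5 and RSEM 1.2.12 with no role; the genome build, annotation and strand setting are not given in the sources used here. Values were analysed as log2(TPM + 1) for 12042 genes, leaving out 4015 whose mean over the libraries was under 1 TPM. JG342 was compared with DMSO by limma 3.58.1 in R 4.3.3 (lmFit, eBayes with a mean-variance trend, treatment as the only term), two-sided, with Benjamini-Hochberg adjustment over all fitted genes. The variance had 2 residual and 6.89 prior degrees of freedom. The fit was tested on simulated data with independent noise and no link between same-numbered libraries, a simpler setting than these data. TPM values keep no depth, so no counting intervals are given.

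Same-numbered libraries share a prefix in their descriptions, and their deviations from the treatment means correlated at 0.27 across genes, so a fit with the number as a block was an alternative. The standard errors of the blocked fit rest mostly on the variance trend over all genes. That of AARS was 0.08, although its same-numbered pairs gave 1.91 and 1.28. The p-values of the blocked fit are therefore no measure of agreement between the pairs. The other alternatives were equal medians, quantile normalization, other pseudocounts and filters, no variance trend and each library left out. The family, whose members were taken by symbol, and the lists were chosen with earlier results of these data known. Full values were set for the 8 called cytosolic and 4 called mitochondrial genes of smallest p, every called gene that fell and every called gene of the list, and values of the others were added after they were seen. Transcripts nearly identical to another were sought by BLAST 2.17.0 (at least 95% identity over at least 20% of the transcript) and exon overlaps read in GENCODE transcripts; no synthetase gene other than SARS2 had such a copy. Counts, medians and sums cover all 17 mitochondrial genes, but the values of 1 of them are not reported here.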

Additional observations from a re-analysis of the deposited data

How the results depend on the processing

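With 2 libraries a group, small changes are beyond what these data can resolve. All 15 synthetase calls kept their direction in all 13 alternative fits, and AARS, SARS, WARS, MARS and IARS passed in each. With the replicate number as a block, 4207 of all genes, 4 mitochondrial and 5 list genes passed, and with the block and equal medians 4226, 6 and 6. Without the filter on low values 828 of all genes, 6 cytosolic and 0 mitochondrial genes passed (limma; 3 mitochondrial at an unadjusted p under 0.05). Without the variance trend 0 mitochondrial genes passed (limma; 3 unadjusted). Leaving out 1 library gave 767 to 1825 of all genes, 9 to 13 cytosolic and 0 to 1 mitochondrial genes (limma; 1 to 4 unadjusted), and 3 list genes each time. In those fits the lone library was assumed to vary like the other group. The replicate block changed no call other than those given beside the results. The cause was not tested.

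Signs near 0 turned, none of them in a call. With equal medians, with or without the block, VARS was -0.017, QARS -0.022, AIMP2 -0.0064, QRSL1 -0.048 and MTFMT -0.016. After quantile normalization PARS2 was -0.0081 and QRSL1 -0.069. With 1 library left out, the log2 fold changes of 14 genes crossed 0: HARS2 -0.015 to 0.23, AIMP2 -0.10 to 0.22, DTD2 -0.21 to 0.10, QRSL1 -0.095 to 0.13, VARS -0.0088 to 0.11, FARSB -0.19 to 0.10, TARS2 -0.036 to 0.032, MTFMT -0.015 to 0.11, PARS2 -0.068 to 0.26, VARS2 -0.080 to 0.071, SEPSECS -0.34 to 0.095, CARS2 -0.17 to 0.10, NARS2 -0.12 to 0.0056, WARS2 -0.25 to 0.011.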
